A study of Mus musculus with 24 samples.

Results

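The family of clustered microRNAs made up of miR-23, miR-24 and miR-27 was followed with 5 microRNA assays, those named mmu-miR-23a, mmu-miR-23b, mmu-miR-24, mmu-miR-27a and mmu-miR-27b, out of 584 microRNA assays in the series. The assays were chosen by name, and names ending in a star, which mark the less abundant strand of a hairpin, were not among the 5. The measurements were real-time PCR after reverse transcription, run on TaqMan low density arrays, pairs of cards (A and B) whose wells each hold 1 assay. There were 4 groups of untreated mouse cells with 3 replicates each, 12 in all. The CT-BM samples were primary marrow cells from flushed long bones of the hind leg, although the growth protocol given for it describes a suspension culture and the series title speaks of stem cells. L-1210 is a lymphocytic leukaemia line and M1 a myeloid leukaemia line. PYS is a teratocarcinoma line. The 3 lines were taken at passage 3, each group of line replicates is a single line, and mouse strain, age and sex are not given in the sources used here. The labels do not say that replicates came from separate cultures or animals, so the p-values speak to the spread among these samples alone, and that spread may be technical.

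MicroRNAs of this family are cut from hairpins that lie together in clusters, each holding a miR-23, a miR-27 and a miR-24 hairpin that are transcribed as a unit. One strand of a hairpin, the guide, is loaded into Argonaute and pairs with messenger RNAs through its seed, and the other strand is usually degraded. In blood cells the chromosome 8 cluster is known as a target of the myeloid transcription factor PU.1 and as a brake on B cell development, miR-23a and miR-23b are known to be repressed by c-Myc, and miR-27 is known to act on regulators of haematopoiesis and of fat cell formation.

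The mouse genome holds 2 such clusters. In RefSeq on GRCm38.p6, Mir23a, Mir27a and Mir24-2 lie on the plus strand of chromosome 8 within 404 bases (chr8:84208518-84208921), with no other kind of gene annotated around them. Mir23b, Mir27b and Mir24-1 lie on the plus strand of chromosome 13 within 792 bases (chr13:63300484-63301275), inside the bounds of the protein-coding gene Aopep. The mature guide sequences, with the seed (bases 2 to 8 from the 5′ end) in capitals, are shown because they decide which assays can be told apart by cluster. RefSeq matched 4 of the 5 members, and miR-23b is the other.
mmu-miR-23a-3p: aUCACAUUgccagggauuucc
mmu-miR-27a-3p: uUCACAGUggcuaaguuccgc
mmu-miR-27b-3p: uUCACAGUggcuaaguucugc
mmu-miR-24-3p: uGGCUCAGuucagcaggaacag
miR-27a (chr8:84208727-84208747) and miR-27b (chr13:63300760-63300780) share a seed and differ by 1 base, C19U counted from the 5′ end of miR-27a. The miR-24 sequence is the same from Mir24-2 (chr8:84208875-84208896) and Mir24-1 (chr13:63301251-63301272), so the miR-24 assay reads both clusters together. How far the miR-27a and miR-27b assays read each other's target was not measured here.

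The star strands of the same hairpins differ more between clusters, and they were added as a second readout of each hairpin after the wells had been seen. The sequences of those that amplified are shown with their seeds in capitals.
mmu-miR-27a-5p: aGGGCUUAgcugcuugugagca
mmu-miR-27b-5p: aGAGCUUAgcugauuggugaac
mmu-miR-24-2-5p: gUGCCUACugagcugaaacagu
mmu-miR-24-1-5p: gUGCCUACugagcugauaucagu
mmu-miR-23a-5p: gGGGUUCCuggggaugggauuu
The miR-27 star strands differ at 8 positions, among them G3A in the seed. Those of miR-24-1 and miR-24-2 share a seed and their first 16 bases and differ after that. They come from different clusters, and how far each assay reads the other's target was not measured here. The assay for the miR-23a star strand carries the rat name, and its match to the mouse sequence shown was not checked.

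The table held 8969 wells, 367 to 380 on each card of each replicate, and 48.3% of wells gave no amplification. A value is a Ct, the PCR cycle at which a well passed the fluorescence threshold, so a lower Ct means more template and 1 cycle is a 2-fold step. Levels below are negative delta Ct, the mean Ct of the card's control RNAs (MammU6, snoRNA135 and snoRNA202) minus the Ct of the assay, on a log2 scale. An assay's level is set only against its own level in another group, since the efficiencies of different assays are not known. Marker microRNAs were checked against the labels. All 4 blood microRNAs of the marker list were detected in every replicate of CT-BM, L-1210 and M1, with summed levels (log2) of 1.49 to 1.67 in CT-BM, -2.11 to -1.89 in M1 and -5.06 to -2.91 in L-1210. In PYS 3 of the 4 were detected, at -11.44 to -10.97, and 10 of 10 embryonic stem cell microRNAs on the cards were detected in every PYS replicate. Of these 10, each other group had 2 to 4 in every replicate with a well. Their summed levels were -21.1 to -13.0 in those groups, against -0.49 to -0.01 in PYS. CT-BM also held both erythroid markers (miR-451 and miR-486, at 20.8 and 24.8 cycles), of which L-1210 had neither, M1 had miR-451 in 1 of 3 replicates and PYS had miR-451 in 3 of 3 at 27.4 cycles. It held all 4 stromal markers at -6.29 to -5.70, against -13.49 to -10.44 in the lines. Not all of the 4 were particular to CT-BM. miR-199a-3p was detected in every replicate of each line, at 23.4 cycles in M1, 24.5 in L-1210 and 28.8 in PYS, against 23.8 in CT-BM. miR-145 was also detected in M1 and PYS, while miR-143 and miR-214 were detected in no line. The endothelial markers miR-126-3p and miR-126-5p were both detected in every replicate of all 4 groups. Their summed levels were -1.84 to -1.69 in CT-BM and -5.26 to -4.26 in the lines, so this list did not set CT-BM apart by detection. Fewer cells of a type and less RNA per cell cannot be told apart in these samples, and the part of the CT-BM cell mixture in the results below was not tested.

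Scaled to the 3 controls, miR-23b and miR-27b, both from the chromosome 13 cluster, were higher in M1 than in CT-BM. miR-24 and miR-27a were not called, and no member was called in L-1210 or PYS against CT-BM. A call here is a Benjamini-Hochberg adjusted p under 0.05 in limma over all assays tested in that comparison and at least a 2-fold difference. The 3 comparisons with CT-BM share its replicates. miR-23a could not be compared, because all 11 of its wells were undetermined (the well of 1 PYS replicate is absent from the table). The other 4 members amplified in 12 of 12 replicates.

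miR-23b, the guide of the chromosome 13 miR-23 hairpin, amplified at 22.3, 22.5 and 21.9 cycles in M1. It amplified at 26.2, 26.0 and 27.0 cycles in CT-BM, 25.6, 25.0 and 24.9 in L-1210 and 24.9, 24.1 and 25.2 in PYS. All 3 M1 replicates came up earlier than every other replicate. As levels on the log2 scale, M1 gave -9.50, -10.20 and -9.61 and CT-BM -11.73, -10.89 and -12.10. L-1210 gave -11.77, -10.74 and -11.58, and PYS -11.04, -10.60 and -10.98. M1 again lay above all other replicates, and the other 3 groups overlapped. Against CT-BM, miR-23b was 3.49-fold higher in M1 (log2 difference 1.80 ± 0.35 SE, n = 3 and 3, limma adjusted p = 0.000506). It was 0.21 ± 0.35 higher in L-1210 (adjusted p = 0.596) and 0.70 ± 0.35 higher in PYS (adjusted p = 0.0806), neither of which was called. The order of group means was M1, PYS, L-1210 and CT-BM, and only M1 and PYS differed as neighbours (1.11 ± 0.35, limma adjusted p = 0.0109).

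miR-27b, the next hairpin of the chromosome 13 cluster, had levels of -8.71, -9.19 and -8.58 in M1 and -9.88, -9.65 and -10.09 in CT-BM (log2). Levels were -10.71, -9.26 and -10.09 in L-1210 and -9.49, -9.02 and -9.62 in PYS. The M1 replicates lay above every CT-BM and L-1210 replicate and overlapped PYS. miR-27b was 2.06-fold higher in M1 than in CT-BM (log2 difference 1.05 ± 0.34 SE, limma adjusted p = 0.0132), so 2 of the 4 members tested were called, both higher. In that comparison 69.5% of all assays tested were called, 25.2% higher and 44.3% lower, and the 2 groups did not overlap in 79.7% of assays and in 2 of the 4 members. The miR-27b call rests on a fold close to the minimum. Its log2 difference was 0.94 without CT-BM replicate 3, 0.99 without M1 replicate 1 and 0.92 without M1 replicate 3, each under the 2-fold minimum. No neighbours in the order M1, PYS, CT-BM and L-1210 were called, although PYS lay above CT-BM without overlap (0.50 ± 0.34, limma adjusted p = 0.179).

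miR-27a, which lies in the chromosome 8 cluster and shares its seed with miR-27b, followed another order. Its levels were -9.32, -9.70 and -8.78 in M1 and -9.04, -8.89 and -9.28 in CT-BM, so these groups overlapped (log2 difference -0.20 ± 0.31, limma adjusted p = 0.585). Levels were -8.14, -7.74 and -8.41 in PYS and -9.15, -8.10 and -8.66 in L-1210. All PYS replicates lay above all CT-BM and M1 replicates. PYS exceeded CT-BM by 0.97 ± 0.31 (1.97-fold, limma adjusted p = 0.0111), which passed on p and missed the 2-fold minimum. That left 0 of 4 members called in PYS against CT-BM, where 78.5% of assays tested were called, 39.8% higher and 38.7% lower. The groups did not overlap in 2 of 4 members, miR-27a and miR-27b, and in 89.5% of assays tested. Leaving out CT-BM replicate 2 gave 1.06 for miR-27a and 1.04 for miR-23b, both then called, and leaving out PYS replicate 3 gave 1.13 for miR-27a. In L-1210 against CT-BM 0 of 4 members were called with limma, 0 of them at an unadjusted p under 0.05, where 68.2% of assays tested were called, 22.5% higher and 45.6% lower. All 4 members overlapped between these groups, whereas 79.3% of assays tested did not.

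miR-24, the guide made from both clusters, had nearly the same level in every group with this scaling. Levels were -1.72, -1.91 and -1.86 in CT-BM and -1.81, -2.10 and -1.70 in M1. They were -1.86, -1.70 and -1.91 in L-1210 and -2.07, -1.68 and -1.50 in PYS. The groups overlapped, and the differences from CT-BM were -0.04 ± 0.20 in M1, 0.01 ± 0.21 in L-1210 and 0.08 ± 0.21 in PYS (log2, limma). As Ct, miR-24 came up at 14.3 ± 0.34 cycles in M1, 15.6 ± 0.37 in L-1210, 15.6 ± 0.42 in PYS and 16.6 ± 0.37 in CT-BM (SD, n = 3), so the even levels depend on the control RNAs.

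**Figure D1:**
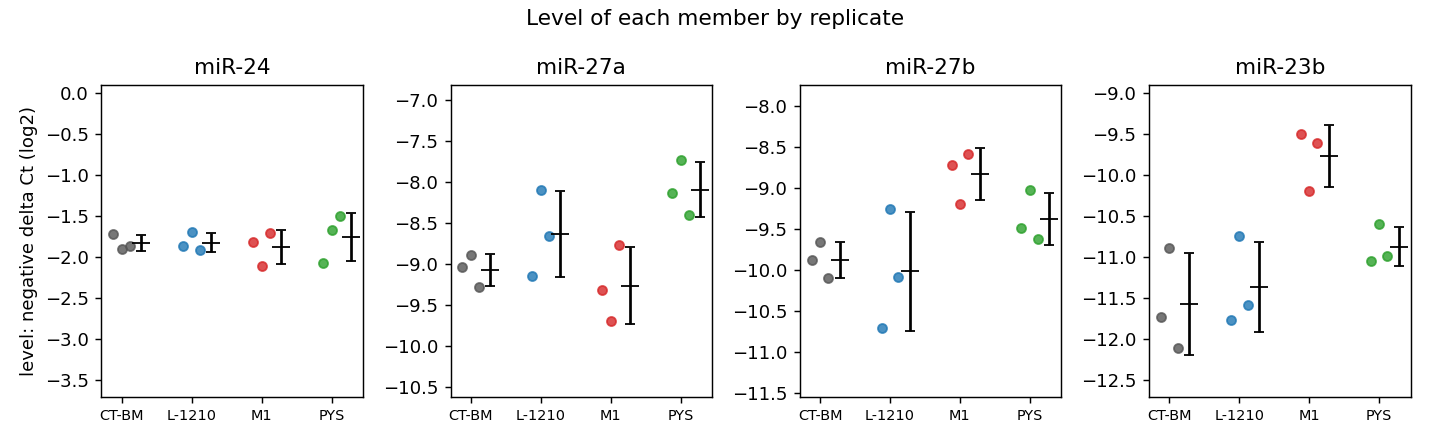
Negative delta Ct (log2 scale, vertical axis) of miR-23b, miR-24, miR-27a and miR-27b in each of the 4 groups. Points are the 3 replicates, dashes the group means and bars ± SD. M1 lies above all other replicates for miR-23b, from -10.20 to -9.50, while miR-24 stays between -2.10 and -1.50 in all 12 replicates.

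Between the lines, M1 again had more miR-23b and miR-27b than L-1210. In L-1210 against M1 2 of 4 members were called, both lower in L-1210, and these 2 did not overlap. Over all assays tested 55.9% were called, 30.7% lower and 25.2% higher, and 69.6% did not overlap. miR-23b was 3.02-fold lower (-1.59 ± 0.35, limma adjusted p = 0.00158) and miR-27b 2.28-fold lower (-1.19 ± 0.34, adjusted p = 0.00771). Without L-1210 replicate 1 the miR-27b difference was -0.84 and was not called. In PYS against M1 2 of 4 were called, in opposite directions, and the groups did not overlap in those 2. Over all assays tested 73.3% were called, 46.0% higher and 27.3% lower in PYS, and 83.0% did not overlap. miR-23b was lower in PYS (-1.11 ± 0.35, 2.15-fold, adjusted p = 0.0109), and miR-27a was higher (1.17 ± 0.31, 2.25-fold, adjusted p = 0.00378). The miR-23b difference was -0.97 without M1 replicate 1. The miR-27a difference was 0.95 without M1 replicate 2 and 0.99 without PYS replicate 2, all 3 under the fold minimum. In PYS against L-1210 limma called 0 of 4 members, 0 at an unadjusted p under 0.05, and no member separated the groups. Over all assays tested 73.5% were called, 45.9% higher and 27.6% lower in PYS, and 82.6% did not overlap. Without L-1210 replicate 2 miR-27b passed, at 1.02.

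These levels depend on the controls, which did not move together. On card A of L-1210, compared with CT-BM, snoRNA202 was 2.64 cycles earlier, snoRNA135 1.11 cycles earlier and MammU6 0.74 cycles later. In M1 they came up 2.67, 2.23 and 2.17 cycles earlier, and in PYS snoRNA202 and snoRNA135 were 1.53 and 1.86 cycles earlier while MammU6 was 0.57 cycles later. On card A the controls therefore spread least in M1. On card B, which held the star strands, they were further apart in M1. There snoRNA202, snoRNA135 and MammU6 came up 2.59, 2.10 and 0.78 cycles earlier than in CT-BM. miR-23b was higher in M1 than in CT-BM with all 6 other scalings tried, by 1.49 to 3.76 on the log2 scale, and was called with each. miR-27b was higher by 0.73 to 2.51 and missed the call with MammU6 alone (1.23, limma adjusted p = 0.0664), with snoRNA202 alone (0.73) and with both snoRNAs (0.95). In L-1210 the direction itself turned with the control. All 4 members were called higher than in CT-BM with MammU6 alone and all 4 lower with snoRNA202 alone. miR-24 was 1.75 higher with the former and 1.63 lower with the latter (log2). The median of all assays tested in that comparison moved with it, from -0.82 with the 3 controls to 1.05 with MammU6 and -2.47 with snoRNA202.

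Between lines the division also turned on MammU6. With MammU6 alone, miR-23b differed by -0.04 in L-1210 against M1 and by 0.22 in PYS against M1, and miR-27b by 0.37 in L-1210 against M1, none of them called. With the other 5 scalings both stayed lower in L-1210 than in M1, miR-23b by -2.91 to -1.03 (called with each) and miR-27b by -2.50 to -0.62 (log2), the last, with the mean of commonly detected assays, not called. miR-23b stayed lower in PYS than in M1 with those 5, from -2.15 to -0.77, and missed the call with the mean of commonly detected assays (-0.77). miR-27a in PYS against M1 ranged from 0.12 with snoRNA135 alone to 2.49 with MammU6 alone and was called with MammU6 and with the mean of common assays.

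**Figure D2:**
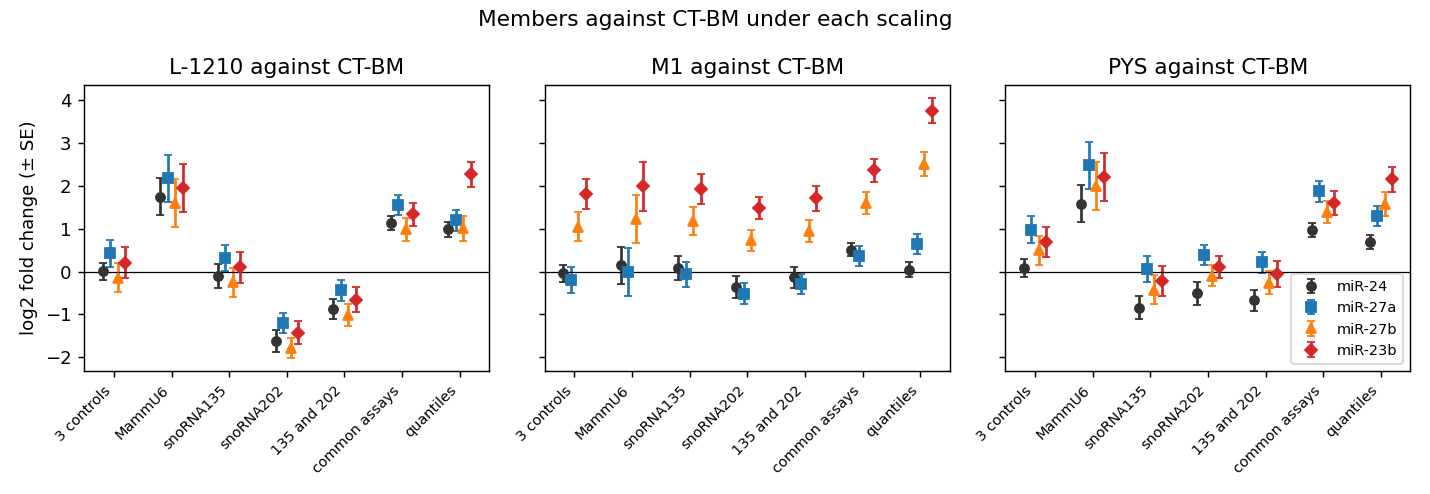
Log2 difference from CT-BM (vertical axis, bars ± SE) of the 4 detected members in L-1210, M1 and PYS, under the main scaling and 6 others (horizontal axis). In M1 the miR-23b values stay above 0, from 1.49 to 3.76, while in L-1210 the 4 members lie on both sides of 0.

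Differences between 2 assays on the same card use no control RNA. They are free of the amount of RNA only if both assays amplify with the same efficiency, which is not known. For each of the 6 pairs of detected members the Ct of one was subtracted from that of the other in each replicate. The group means were then compared with an exact permutation F test over the 15400 ways to divide the 12 replicates into groups (smallest p 6.49e-05), with p adjusted over the 6 pairs. Only shifts of a difference between groups are read, not its size.

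The pair of miR-27 guides, whose sequences above differ by C19U, gave the clearest shift. miR-27a minus miR-27b was -0.84, -0.76 and -0.82 cycles in CT-BM, -1.56, -1.16 and -1.43 in L-1210, and -1.35, -1.28 and -1.21 in PYS. In M1 it was 0.60, 0.51 and 0.19. The M1 replicates were the only ones above 0, and they overlapped no other group. The group means were 0.43 ± 0.21 in M1, -0.81 ± 0.04 in CT-BM, -1.28 ± 0.07 in PYS and -1.38 ± 0.20 in L-1210 (SD, n = 3, exact permutation p = 0.000325, adjusted p = 0.00195). At a doubling per cycle, miR-27b relative to miR-27a was 2.36-fold higher in M1 than in CT-BM, 3.52-fold higher than in L-1210 and 3.28-fold higher than in PYS. L-1210 and PYS also lay below CT-BM without overlap, by 0.57 and 0.48 cycles, and overlapped each other. For single pairs of groups, 3 against 3, the exact test cannot give a p below 0.1, so none can pass.

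miR-23b moved against miR-27a in the same way. The difference was 2.69, 2.00 and 2.83 cycles in CT-BM, 2.62, 2.64 and 2.92 in L-1210, 2.90, 2.86 and 2.58 in PYS, and 0.19, 0.50 and 0.84 in M1. Only the M1 replicates were below 2 cycles, and over the 4 groups the exact permutation F test gave p = 0.0110 (adjusted p = 0.0219). The shift of M1 from CT-BM was 4.00-fold, which by itself gave an exact p of 0.1, the smallest possible. miR-23b minus miR-24 was 7.90 ± 0.20 cycles in M1, against 9.74 ± 0.67 in CT-BM, 9.54 ± 0.44 in L-1210 and 9.13 ± 0.31 in PYS (SD, n = 3, exact permutation adjusted p = 0.0154). M1 overlapped none of the others.

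The 3 remaining pairs shifted less. miR-23b minus miR-27b, both products of the chromosome 13 cluster, ran from 0.94 ± 0.13 cycles in M1 to 1.70 ± 0.40 in CT-BM (SD, n = 3, exact permutation adjusted p = 0.0398), the smallest span of group means of the 6 pairs. miR-24 minus miR-27a ran from -7.39 in M1 to -6.34 in PYS (exact permutation adjusted p = 0.0401), and miR-24 minus miR-27b from -8.19 in L-1210 to -6.96 in M1 (exact permutation adjusted p = 0.0372). All 6 pairs passed with all replicates, and 3 to 6 passed when single replicates were left out. The pairs share assays, so they are not separate results. How many of all pairs of assays on card A would pass was not computed, so the count is not read as a trait of the family. Between pairs of groups, 55.9% to 78.5% of single assays tested were called with limma.

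**Figure D3:**
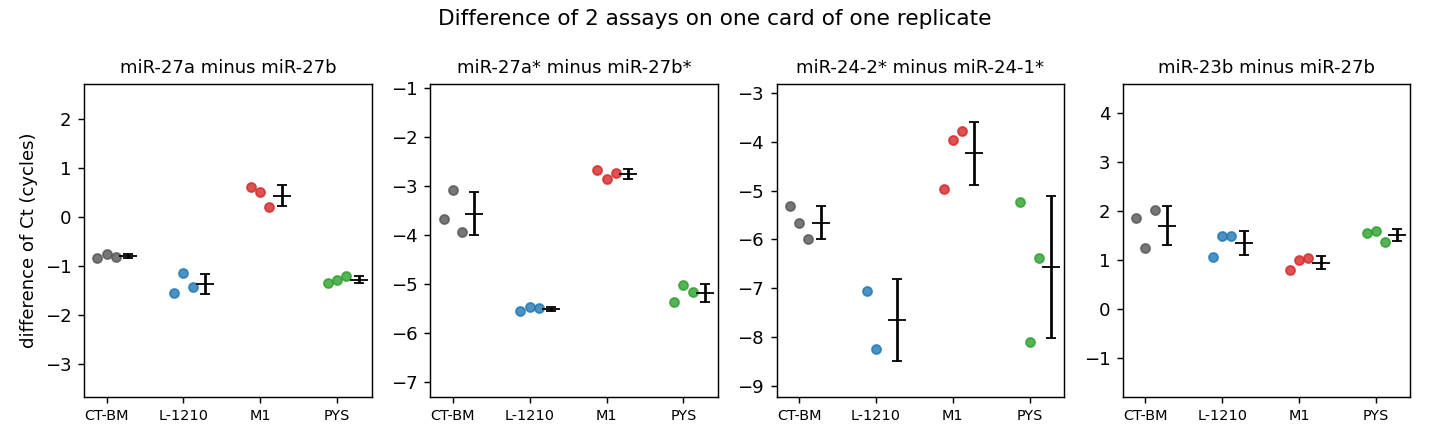
Ct difference in cycles (vertical axis) between pairs of assays on one card, by group. Points are the replicates, dashes the group means and bars ± SD. For miR-27a minus miR-27b the M1 replicates lie at 0.19 to 0.60 cycles and all other replicates at -0.76 or lower.

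The star strands were measured on card B with 1 assay each. Those of miR-24-1, miR-24-2, miR-27a and miR-27b amplified in every replicate in which their wells were present, and the well of the miR-24-1 star strand was absent from L-1210 replicate 1. miR-27b* is the star strand of the chromosome 13 miR-27 hairpin, whose guide was high in M1. It came up at 23.5, 23.7 and 22.9 cycles in M1 and at 27.5, 27.3 and 28.9 in CT-BM, or levels of -10.98, -11.14 and -10.93 against -13.76, -13.32 and -14.22 (log2). The lowest and highest levels were -13.59 and -13.55 in L-1210 and -13.47 and -13.16 in PYS, so M1 stood above all other replicates. miR-27b* was 6.73-fold higher in M1 than in CT-BM (2.75 ± 0.23, limma adjusted p = 1.89e-07). It was not called in L-1210 (0.19 ± 0.23) or PYS (0.42 ± 0.23).

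The miR-24-1 star strand, from the same cluster, was also highest in M1 on average. Levels were -14.44, -13.77 and -13.14 in M1 and -15.39, -15.16 and -16.24 in CT-BM. They were -15.63 and -17.21 in L-1210 and -13.40, -16.14 and -14.50 in PYS. M1 exceeded CT-BM without overlap (1.81 ± 0.66, 3.51-fold, limma adjusted p = 0.0259) and overlapped PYS, whose replicates spread widely. The call was lost with replicate number as a block (1.81, adjusted p = 0.0530), and without CT-BM replicate 3 (1.49, adjusted p = 0.0966), M1 replicate 2 (1.81, adjusted p = 0.0559) or M1 replicate 3 (1.49, adjusted p = 0.0930). It was also lost with snoRNA202 alone (1.05, adjusted p = 0.151) and with both snoRNAs (1.29, adjusted p = 0.0802).

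miR-27a*, the star strand of the chromosome 8 miR-27 hairpin, was higher in all 3 lines. Levels were -10.09, -10.24 and -10.27 in CT-BM and -8.32, -8.28 and -8.20 in M1. They were -8.03, -8.08 and -8.10 in L-1210 and -8.10, -8.14 and -8.25 in PYS. All 9 line replicates lay above all CT-BM replicates. Against CT-BM it rose by 1.94 ± 0.16 in M1 (3.83-fold, limma adjusted p = 2.48e-07), 2.13 ± 0.17 in L-1210 (4.38-fold, adjusted p = 9.11e-08) and 2.04 ± 0.17 in PYS (4.12-fold, adjusted p = 1.24e-07). Under the other scalings the difference was 0.48 to 4.16 in L-1210 and 0.86 to 4.07 in PYS, and it missed the call with snoRNA202 alone in L-1210 and with snoRNA135 alone or quantile normalization in PYS. The miR-24-2 star strand, from the same cluster, was called in L-1210 (1.16 ± 0.23, 2.24-fold, limma adjusted p = 0.000575) and PYS (1.82 ± 0.23, 3.53-fold, adjusted p = 8.49e-06) and not in M1 (0.40 ± 0.23, adjusted p = 0.134). These calls held less well: in L-1210 the difference was -0.49 with snoRNA202 alone, 0.15 with both snoRNAs and 0.79 with snoRNA135 alone. In PYS it was 0.64 with snoRNA135 alone, 0.97 with snoRNA202 alone, 0.81 with both snoRNAs and 0.89 with quantile normalization, each below 2-fold.

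The rat-named miR-23a star assay amplified in all 9 line replicates, from 27.5 to 31.8 cycles, and in 0 of 3 CT-BM replicates. Against the Ct limit of 35 this is at least 27.5-fold higher in M1, 14.0-fold in L-1210 and 11.1-fold in PYS. No p is given, because the assay entered only through the lines that detect it. The bounds rest on the limit: with a Ct limit of 32 the log2 differences were 1.78 in M1, 0.81 in L-1210 and 0.47 in PYS, and none was called. The rat-named miR-24-1 star assay amplified in none of 12 replicates. Of the 4 mouse-named star assays, 3 were called higher in M1, 2 in L-1210 and 2 in PYS, beside 25.2%, 22.5% and 39.8% of all assays tested, and none was called lower.

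Differences of star strands on card B again used no control RNA, with the same limit from unknown efficiencies. miR-27a* minus miR-27b* was -2.66, -2.85 and -2.73 cycles in M1 and -3.66, -3.08 and -3.94 in CT-BM. It was -5.37, -5.02 and -5.15 in PYS and -5.55, -5.47 and -5.49 in L-1210. The 4 groups did not overlap (exact permutation p = 6.49e-05, the smallest the test can give, adjusted p = 0.000195 over 6 pairs). As with the guides, miR-27b* stood highest against miR-27a* in M1, 1.76-fold above CT-BM, and L-1210 and PYS lay on the other side of CT-BM by 3.83-fold and 3.07-fold. The miR-24-2 star strand minus miR-27b* was -1.47 ± 0.12 cycles in M1, -3.83 ± 0.14 in CT-BM, -4.80 ± 0.17 in L-1210 and -5.22 ± 0.10 in PYS (SD, n = 3, exact permutation adjusted p = 0.000195). The miR-24-2 star strand minus that of miR-24-1 was -4.24 in M1, -5.66 in CT-BM, -6.56 in PYS and -7.65 in L-1210 (n = 2) (exact permutation adjusted p = 0.0374). Differences within a cluster shifted too on chromosome 8, where miR-27a* minus the miR-24-2 star strand ran from -1.27 in M1 to 0.27 in CT-BM (exact permutation adjusted p = 0.000779). On chromosome 13 miR-27b* minus the miR-24-1 star strand did not pass (-2.85 to -1.34 cycles, exact permutation adjusted p = 0.295), nor did miR-27a* minus the miR-24-1 star strand (adjusted p = 0.0532). In all 4 of 6 pairs passed, and 3 to 6 when single replicates were left out. These pairs share assays too, and how many of all pairs on card B would pass was not computed.

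**Figure D4:**
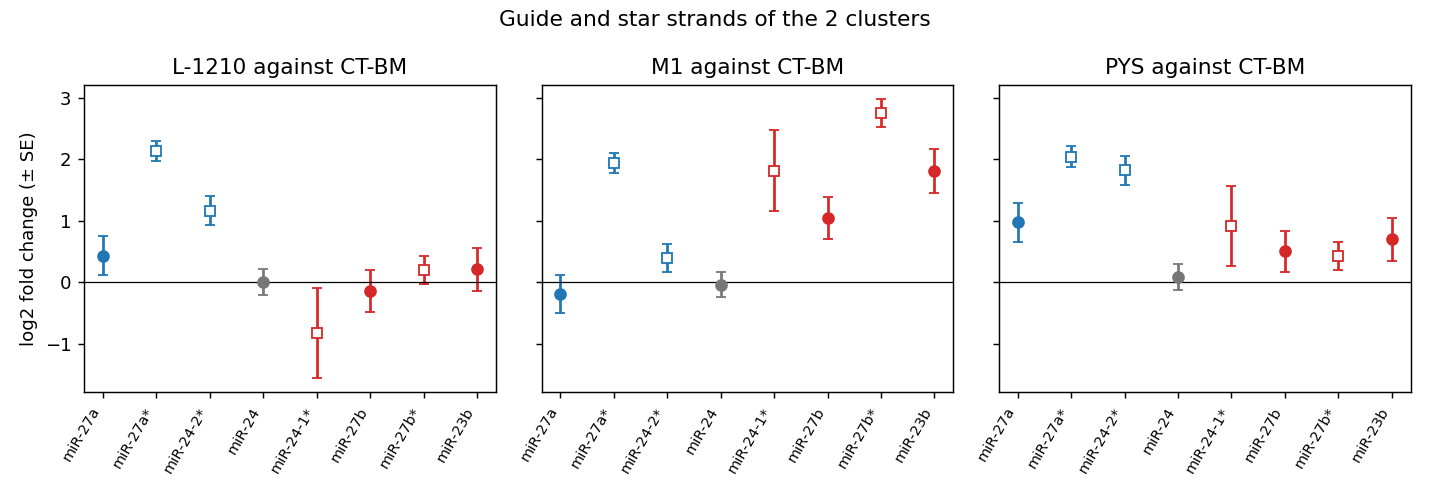
Log2 difference from CT-BM (vertical axis) of guide strands on card A (filled circles) and of star strands on card B (open squares), in L-1210, M1 and PYS. Each point is the limma estimate for an assay, and bars are ± SE. Both strands of the miR-27b hairpin lie highest in M1. miR-27a* lies above 0 in all 3 lines, from 1.94 to 2.13, while miR-27a runs from -0.20 in M1 to 0.97 in PYS.

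Guide and star strands were compared as the guide's level minus the star strand's, each scaled to the controls of its own card. For the miR-27a hairpin it was 1.13 ± 0.19 in CT-BM, 0.07 ± 0.30 in PYS, -0.56 ± 0.55 in L-1210 and -0.997 ± 0.42 in M1 (log2, SD, n = 3, exact permutation p = 0.00156, adjusted p = 0.00312 over 4 pairs of strands). CT-BM lay above all 3 lines without overlap, so the star strand was higher relative to the guide in each line, by 1.07 to 2.13 on the log2 scale. Under 5 other scalings of both cards the adjusted p was 0.00416 to 0.0226, and with the mean of commonly detected assays PYS overlapped CT-BM (-0.10). The size depended on the scaling. The shift from CT-BM ran from -2.98 to -1.68 in M1, from -1.98 to -1.34 in L-1210 and from -1.58 to -0.10 in PYS. It was largest with MammU6 alone, which in M1 was 2.17 cycles earlier than in CT-BM on card A and 0.78 on card B. For the miR-27b hairpin the difference was lowest in M1, at 2.18 ± 0.21 against 3.56 to 3.97 in the other groups (exact permutation adjusted p = 0.0136). M1 stayed lowest under the 5 other scalings. With the mean of commonly detected assays PYS lay 1.04 above CT-BM without overlap, against 0.08 above it with the 3 controls. The miR-24 guide comes from both clusters, so its difference from either star strand is not that of 1 hairpin. Against the miR-24-2 star strand it was 8.11 ± 0.45 in CT-BM, 7.67 ± 0.03 in M1, 6.95 ± 0.09 in L-1210 and 6.37 ± 0.26 in PYS (SD, n = 3, exact permutation adjusted p = 0.00104). With the mean of commonly detected assays the span of its group means fell from 1.74 to 0.80 (exact permutation adjusted p = 0.0281). Against the miR-24-1 star strand the groups did not pass (adjusted p = 0.0969).

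The assays whose levels ran most like each member over the 12 replicates were sought among 118 other assays on card A detected in every replicate. These correlations are a description, and the replicates share controls, cards and group differences. For miR-23b the most alike was miR-27b (Pearson r = 0.92), followed by miR-92a (0.81) and miR-339-5p (0.79). For miR-27b they were miR-23b, miR-339-5p (0.84) and miR-30a (0.78). For miR-27a they were miR-350 (0.90), miR-532-3p (0.88) and miR-362-3p (0.87), while its r with miR-27b was 0.18 and with miR-23b -0.01. For miR-24 the highest r was 0.47, with miR-429. After each replicate was centred on its commonly detected assays, miR-23b and miR-27b were still each other's nearest (0.94), and miR-24 and miR-27a had an r of 0.83. miR-27a then had an r of 0.53 with miR-27b and 0.36 with miR-23b, and miR-24 had 0.89 with miR-429, its nearest assay but for 4 others.

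Other microRNAs tied to the same regulators were counted from lists. Over all assays tested against CT-BM, 44.3% were called lower in M1, 45.6% in L-1210 and 38.7% in PYS, and the counts that follow are read beside these shares. Of 19 microRNAs known as repressed by c-Myc, 2 were called higher and 9 lower in L-1210 than in CT-BM, with a median log2 difference of -0.89 against -0.82 for all assays tested. In M1 1 was higher and 6 lower (median -0.65 against -0.59), and in PYS 2 of 18 tested were higher and 10 lower (median -1.71 against 0.08). miR-150, a lymphocyte microRNA that restrains c-Myb, differed by -10.77 in L-1210, -9.41 in PYS and -5.72 in M1 on the log2 scale, whereas miR-34a, a p53 target, was 2.06-fold higher in L-1210 (limma adjusted p = 0.00802). Of 5 microRNAs known as activated by PU.1, 4 were lower in each line and miR-155 was higher in L-1210 (5.25-fold, limma adjusted p = 1.15e-05) and M1 (5.32-fold, adjusted p = 1.14e-05). miR-223, a granulocyte microRNA, differed by -13.68 in L-1210 and -18.81 in PYS, and miR-342-3p by -9.50 in L-1210 and -6.52 in M1 (log2). Beside these lists the members had medians against CT-BM of 0.50 in M1, 0.11 in L-1210 and 0.60 in PYS over the 4 members tested.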

How the data were processed

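Total RNA of 12 replicates, each on cards A and B, gave 1 deposited table. Its values, per the file headers, are each well's Ct and the mean Ct per assay, in PCR cycles and not normalized. The authors ran 40 cycles on Applied Biosystems 7900HT cards, per the labels' protocols. The software and its detection limit are not given in the sources used here. Undetermined wells and the 15 with Ct over 35 took the value 35 and were treated as not detected, and repeat wells were averaged. Delta Ct was taken against MammU6, snoRNA135 and snoRNA202 of the same card, the controls the design text names. The limma package (version 3.58.1, under R 4.3.3; lmFit, then eBayes) was applied to negative delta Ct with 1 mean for each of the 4 groups, for assays detected in every replicate of at least 1 compared group, with Benjamini-Hochberg adjustment over all of them. A missing well stayed missing. Exact permutation tests were two-sided for 2 groups and F tests for 4, in Python 3.11.15 (NumPy 2.4.6, SciPy 1.17.1, pandas 2.3.3), with matplotlib 3.10.9 for the plots. The scripts were tested on simulated data. The number of replicates limits the precision, and no read depth applies.

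The members and lists were chosen with earlier results of these data known, and star strands, their differences and the guide minus star differences were added after the wells were seen. The naming rule took the members, their detected star strands, the 3 assays most like each member, and the 2 largest changes in each direction of the c-Myc and PU.1 lists in each comparison with CT-BM; the text gives a selection of the last. Alternatives were other scalings, Ct limits of 32 and 40, other filters and fits, replicate number as a block and each replicate left out. Sequences and coordinates came from RefSeq on GRCm38.p6.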

Additional observations from a re-analysis of the deposited data

Results flagged for a closer look

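Between the 4 groups, 6 differences of member guides on card A differed by the exact permutation test with p adjusted over 6 pairs: miR-27a minus miR-27b (adjusted p = 0.00195), miR-23b minus miR-24 (0.0154), miR-23b minus miR-27a (0.0219), miR-24 minus miR-27b (0.0372), miR-23b minus miR-27b (0.0398) and miR-24 minus miR-27a (0.0401). Of the 6 star strand differences on card B, 4 did so by the same exact permutation test: miR-27a* minus miR-27b* (adjusted p = 0.000195), miR-24-2* minus miR-27b* (0.000195), miR-27a* minus miR-24-2* (0.000779) and miR-24-2* minus miR-24-1* (0.0374). In each of these 10 differences, with all replicates, 2 products of the family changed unequally between groups of cells. The differences on one card share assays, so they are not 10 separate results. Some no longer passed when single replicates were left out. How often other pairs of assays would pass was not computed.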

How the results depend on the processing

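The precision rests on 3 replicates a group and on the controls. Counts of the 4 members called (2-fold, limma) changed with the scaling. L-1210 against CT-BM went from 0 to 4 with MammU6 alone or snoRNA202 alone, 3 with the mean of commonly detected assays or quantile normalization, and 1 with both snoRNAs. With no detection filter the undetermined miR-23a was tested as well, as a member set to the Ct limit in every well. In L-1210 against CT-BM it was then the only member called, which reflects the controls alone. M1 against CT-BM went from 2 to 1 with MammU6, snoRNA202 or both snoRNAs, and PYS against CT-BM from 0 to 4 with MammU6, 3 with the mean of common assays or quantiles, and 1 with no fold minimum. L-1210 against M1 had 3 lower with snoRNA202 alone, and with MammU6 alone 2 others, miR-24 and miR-27a, were called, both higher. PYS against L-1210 went from 0 to 4 with snoRNA202, and PYS against M1 from 2 to 1 with snoRNA202, the common mean or quantiles. An unchanged count could hold other members. In PYS against M1, MammU6 alone called miR-24 (1.45) and miR-27a (2.49). There miR-23b and miR-27b were called lower with snoRNA135 alone (miR-27b -1.59) and with both snoRNAs (miR-27b -1.21). In L-1210 against M1 the common mean called miR-27a higher (1.19) in place of miR-27b. Directions that turned, where the value was called in either setting, were, in L-1210 against CT-BM with snoRNA202 alone, miR-23b (-1.42), miR-24 (-1.63), miR-27a (-1.20), miR-24-2* (-0.49) and miR-27b* (-1.46), and miR-27b with MammU6 (1.60) and quantiles (1.01). Others were miR-24 with snoRNA202 (-1.27) and miR-27b with MammU6 (0.37) in L-1210 against M1, and miR-23b with MammU6 (0.22) in PYS against M1. Values called in neither setting turned too, such as miR-24 in PYS against CT-BM with snoRNA135 (-0.84), miR-27b in L-1210 against CT-BM with the common mean (0.98), miR-27a in L-1210 against M1 with snoRNA202 (-0.69) and miR-27b* in PYS against L-1210 with quantiles (-0.82). Apart from the controls' own shifts, the cause was not tested. Leaving out single replicates gave 0 to 0 members in L-1210 against CT-BM, 1 to 2 in M1 against CT-BM, 0 to 2 in PYS against CT-BM, 1 to 2 in L-1210 against M1, 0 to 1 in PYS against L-1210 and 1 to 2 in PYS against M1, and 3 to 6 of the 6 differences for guides and for star strands. With replicate number as a block the member counts were 0, 2, 0, 2, 0 and 2 in the same order, as without it, while miR-24-1* lost its calls in M1 against CT-BM (1.81) and PYS against L-1210 (1.60). Same-numbered replicates of different groups correlated at -0.45 to 0.33 over 187 assays, and differently numbered ones at -0.28 to 0.49. These values gave no sign of pairing by number, and with 3 replicates a group they cannot exclude it.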
